A study of Mus musculus with 6 samples.

Results

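The let-7 family guide arms are the mature let-7 miRNAs cut from the 5′ side of their hairpins: mmu-let-7a-5p, b, c, d, e, f, g and i, and mmu-miR-98-5p, which belongs to the family under another name. They were taken by name from the count table and make up 9 of its 810 miRNAs, 669 of which have a miRBase name. All 9 passed the filter on low counts. The libraries were made from small extracellular vesicles (sEV) released into the medium by cochlear explants of ICR mice at postnatal day 3. In 3 samples the explants had received 50 µM cisplatin for 48 h (Cis-sEV), and in 3 samples an equal volume of PBS (Ctrl-sEV). Each sample pooled the sEV of about 80 explants, taken from mice of both sexes and freed of the spiral ganglion, in medium with serum that had been depleted of sEV. No gene was altered in either group. A miRNA counted here can have come from any cell type of the explant or from serum left in the medium, and the part of each was not tested. From the read counts, fewer vesicles, fewer releasing cells and fewer copies in each vesicle cannot be told apart. By particle tracking, the study found no significant difference between the groups in the number of vesicles per explant.

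The let-7 miRNAs are small RNAs that lower the output of target mRNAs, which they find mainly by the seed, the bases at positions 2 to 8. They increase as tissues mature, and the RNA-binding protein LIN28 holds back their maturation from the hairpin. In the cochlea, LIN28B and let-7 act against each other in the timing with which progenitor cells stop dividing and in the loss of regenerative ability of supporting cells.

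The 9 mature sequences are shown because reads of different members can be told apart by 1 base in some cases and because all members share 1 seed. They are printed 5′ to 3′ with the seed in capitals, as deposited, and each was identical to the RefSeq mature sequence.
mmu-let-7a-5p: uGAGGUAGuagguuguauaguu
mmu-let-7b-5p: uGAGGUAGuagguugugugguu
mmu-let-7c-5p: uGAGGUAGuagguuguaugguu
mmu-let-7d-5p: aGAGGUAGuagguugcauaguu
mmu-let-7e-5p: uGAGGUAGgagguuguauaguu
mmu-let-7f-5p: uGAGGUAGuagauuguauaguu
mmu-let-7g-5p: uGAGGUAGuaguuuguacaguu
mmu-let-7i-5p: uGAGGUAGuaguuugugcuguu
mmu-miR-98-5p: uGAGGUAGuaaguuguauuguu

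All 9 are 22 nt long with the seed GAGGUAG, so the members differ only outside it. Counted from 1 at the 5′ end, let-7c differs from let-7a by A19G, let-7e by U9G and let-7f by G12A, each a single base. let-7b (A17G and A19G), let-7d (U1A and U16C), let-7g (G12U and U18C) and miR-98 (G11A and A19U) each differ from let-7a by 2 bases, and let-7i by 4 (G12U, A17G, U18C and A19U). Of the 36 pairs of members, 4 differ at 1 base, 10 at 2 bases and 11 at 3 bases. How reads with a mismatch were divided among such pairs is not given in the sources used here. A further 10 miRNAs of the table share the seed, namely mmu-let-7k and 9 predicted miRNAs, but they held 551 reads over the 6 libraries against 1992878 on the 9 members.

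The members come from 12 hairpins, located in RefSeq and GENCODE annotation of GRCm38.p6. let-7a-1, let-7f-1 and let-7d lie on the minus strand in exons of the non-coding gene 6720427I07Rik, at chr13:48538179-48538272, chr13:48537829-48537917 and chr13:48536012-48536114. let-7c-2 and let-7b lie on the plus strand in exons of the non-coding gene Lncppara, at chr15:85706603-85706697 and chr15:85707319-85707403, 622 bp apart. let-7f-2 and miR-98 lie 786 bp apart on the plus strand in an intron of Huwe1, a ubiquitin ligase gene, at chrX:151912346-151912428 and chrX:151913214-151913321. The other hairpins stand without another let-7 hairpin within 10 kb. let-7g is in an intron of Wdr82 at chr9:106178840-106178927, and let-7e in an intron of Spaca6 at chr17:17830352-17830444, both on the plus strand. let-7i is in an exon of the pseudogene D630033A02Rik at chr10:122985640-122985724 on the minus strand. let-7a-2 is in introns of the non-coding genes 3110039I08Rik and Gm49317 at chr9:41536716-41536811, and let-7c-1 in an intron of the non-coding gene Mir99ahg at chr16:77599657-77599750, both on the plus strand. Gm11146 overlaps let-7c-1 on the other strand. let-7a, let-7c and let-7f therefore each have 2 hairpins that give the same mature sequence, and their counts do not show which hairpin was used.

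Depth differed between the groups, with 1722359 to 1794175 miRNA reads for Cis-sEV against 528952 to 718597 for Ctrl-sEV, so levels are given as reads per 1000000 miRNA reads of the library (CPM). For tests the libraries were also scaled by TMM factors, which set aside miRNAs with extreme differences. The hair cell miRNAs of the miR-183 cluster were present in every library, and their summed level was 59073 to 81525 CPM in Cis-sEV against 54984 to 55757 in Ctrl-sEV, with 1 of 3 higher (miR-96-5p) and 1 lower (miR-183-5p). Red blood cell miRNAs summed to 1158 to 1337 CPM in Cis-sEV against 1639 to 3604 in Ctrl-sEV, and 2 of the 3 tested were lower in Cis-sEV. Neuronal miRNAs summed to 2085 to 2257 CPM and 987 to 1451, with 1 of 4 higher in Cis-sEV. The sum was 47.4 to 62.4 CPM and 0 to 2.78 for muscle, with 2 of 2 tested higher, 430 to 674 and 399 to 561 for leukocytes, and 1573 to 5022 and 1085 to 2794 for mesenchyme, with no miRNA of the last 2 lists past the test. The wide mesenchyme range in Cis-sEV came from miR-199a-3p, with 574, 6515 and 345 reads. miR-199b-3p, outside the list, went the other way, at 4094, 15.4 and 3900 CPM with TMM scaling. How reads were divided between these 2 miRNAs was not tested. The neuronal miRNA that passed, miR-124-3p, and the muscle miR-206-3p had no read in Ctrl-sEV, and the muscle miR-1a-3p had 0, 2 and 0 reads there. All of these passed the filter on low counts only through the deeper Cis-sEV libraries, so the test could not have found them lower. The leukocyte miR-142a arms, the muscle miR-133a-3p and the red blood cell miR-144-5p were not analysed here. The part of these cell types in the changes of let-7 was not tested.

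The summed share of the family overlapped between the groups. Its part of the miRNA reads was 26.7%, 27.4% and 28.6% for Cis-sEV, against 30.1%, 32.0% and 25.9% for Ctrl-sEV. The third Ctrl-sEV library lay below all 3 Cis-sEV libraries and the other two lay above them. The means were 27.6 ± 0.93% and 29.3 ± 3.14% (SD, n = 3 each). Counting error was small beside this spread, with a 95% Wilson interval of 25.7% to 26.0% for the third Ctrl-sEV library, and it covers the sampling of reads only, as copies made by PCR were not told apart. The share depends on mmu-miR-204-5p, the most abundant miRNA, which took 6.34% to 6.66% of the reads in Cis-sEV but 15.7% to 21.2% in Ctrl-sEV. With its reads left out of the total, the family held 28.6% to 30.5% in Cis-sEV against 32.6% to 38.2% in Ctrl-sEV, and the groups no longer overlapped.

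Among the members, mmu-let-7c-5p and mmu-let-7a-5p were lower and mmu-let-7g-5p, mmu-let-7i-5p and mmu-miR-98-5p were higher in Cis-sEV. let-7c, the most abundant member, lay at 57157, 59331 and 58028 CPM in Cis-sEV against 105303, 98961 and 86463 CPM in Ctrl-sEV. let-7a, the next most abundant, lay at 49639, 52239 and 51731 CPM in Cis-sEV against 70048, 74562 and 56137 CPM in Ctrl-sEV. For both, each Cis-sEV library was below each Ctrl-sEV library, and the Ctrl-sEV libraries were spread more widely. In every one of the 6 libraries let-7c and let-7a ranked 2 and 3 among all miRNAs.

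let-7g, whose hairpin lies in Wdr82, was at 26310, 27685 and 28335 CPM in Cis-sEV against 12533, 15938 and 9991 CPM in Ctrl-sEV. Its rank among all miRNAs was 12 to 14 in Cis-sEV against 16 to 21 in Ctrl-sEV. let-7i, the member with the most changes from let-7a, was at 19694, 20266 and 23256 CPM in Cis-sEV against 9765, 11091 and 6938 CPM in Ctrl-sEV. miR-98, the least abundant member, was at 2496, 2872 and 3239 CPM in Cis-sEV against 978, 1008 and 1654 CPM in Ctrl-sEV. For these 3 members each Cis-sEV library was above each Ctrl-sEV library. The third Ctrl-sEV library had the lowest level of let-7g and let-7i of all 6 but the highest level of miR-98 among the Ctrl-sEV libraries.

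The other 4 members lay between these. let-7f, which differs from let-7a by 1 base, was at 43849, 45419 and 46187 CPM in Cis-sEV against 37554, 43719 and 32937 CPM in Ctrl-sEV, with a narrow gap between the groups. let-7b was at 30229 to 34593 CPM and 26912 to 33796 CPM. let-7d was at 25498 to 26638 CPM and 24554 to 27633 CPM, and let-7e at 9226 to 14076 CPM and 11653 to 13112 CPM. The groups overlapped for let-7b, let-7d and let-7e.

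**Figure D1:**
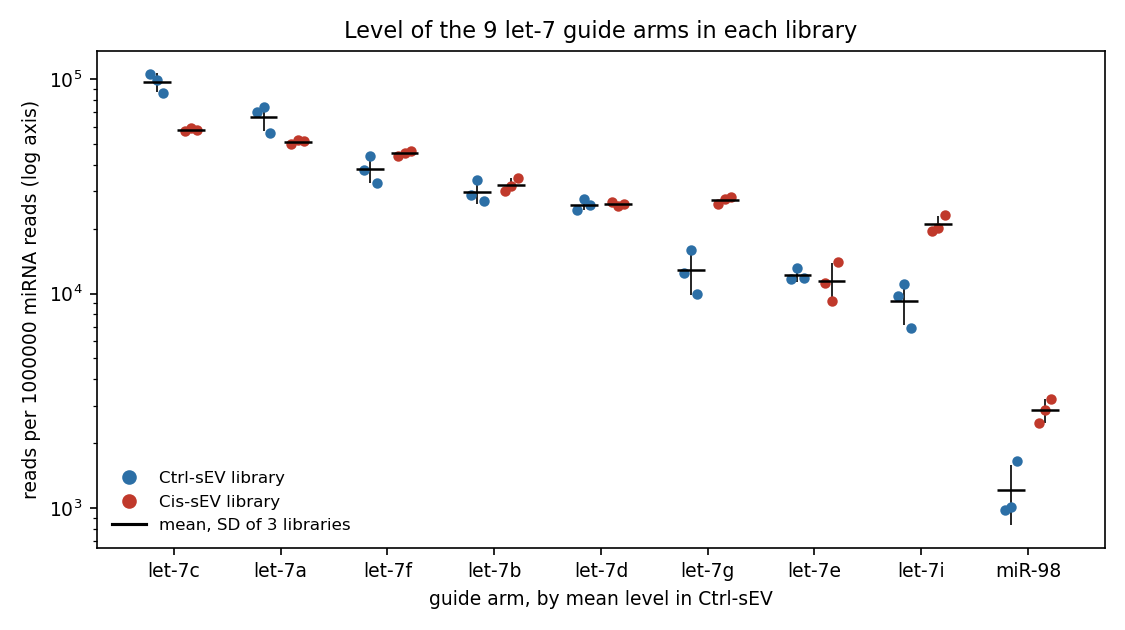
Reads per 1000000 miRNA reads (log axis) of the 9 let-7 guide arms in each Ctrl-sEV (blue) and Cis-sEV (red) library, with the mean and SD of 3 libraries. The red points of let-7c and let-7a sit below the blue ones, those of let-7g, let-7i and miR-98 sit above them, and those of let-7b, let-7d and let-7e overlap.

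The order of the members by level was let-7c, let-7a, let-7f and let-7b at the top and miR-98 at the bottom in all 6 libraries. In Cis-sEV, let-7b was followed by let-7g, let-7d, let-7i and let-7e, and the ranges of let-7g and let-7d overlapped. In Ctrl-sEV, it was followed by let-7d, let-7g, let-7e and let-7i, and the ranges overlapped for let-7f and let-7b, for let-7b and let-7d, and for let-7g and let-7e. let-7i was above let-7e in all 3 Cis-sEV libraries and below it in all 3 Ctrl-sEV libraries. These orders are of read counts, which also carry how readily each sequence was captured in the library.

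The change of each member was taken from an edgeR quasi-likelihood fit to the counts of all 353 miRNAs that passed the filter, with Benjamini-Hochberg adjustment over all of them. A miRNA passed the test where its adjusted p was 0.05 or less, and it was called where its log2 fold change was also at least 1 in size, the limits that the study used. let-7c fell by 1.10 on the log2 scale (SE 0.18, adjusted p = 0.0055), 2.15-fold, and was the only member called. let-7a fell by 0.75 (SE 0.18, adjusted p = 0.0167), 1.68-fold. let-7g rose by 0.75 (SE 0.18, adjusted p = 0.0181), 1.68-fold, let-7i by 0.83 (SE 0.21, adjusted p = 0.0194), 1.77-fold, and miR-98 by 0.89 (SE 0.26, adjusted p = 0.0332), 1.86-fold. The members that did not pass had negative log2 fold changes, -0.44 for let-7e (adjusted p = 0.0842), -0.35 for let-7d (adjusted p = 0.0772), -0.24 for let-7b (adjusted p = 0.267) and -0.11 for let-7f (adjusted p = 0.705).

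In the whole table, 26.3% of the miRNAs tested passed as higher in Cis-sEV and 8.50% as lower, and 23.5% were called higher and 6.52% lower. These shares include miRNAs with no read in any Ctrl-sEV library, such as miR-124-3p and miR-206-3p. Such miRNAs passed the filter only through the deeper Cis-sEV libraries and could not come out as lower. The same holds for the other shares over all miRNAs tested and for their median. Of the 9 members, 3 passed as higher and 2 as lower, and 0 were called higher and 1 lower, so the count that passed as higher was near the share in the whole table. After TMM scaling 3 members had all Cis-sEV libraries above all Ctrl-sEV libraries, against 37.7% of the miRNAs tested, and 5 had all of them below, against 12.5%. In CPM without TMM factors, 4 members lay above, against 45.3% of the miRNAs tested, and 2 below, against 8.78%. The median log2 fold change of all miRNAs tested was 0.44, and that of the 9 members was -0.24. Relative to the median of all miRNAs tested, let-7c lay at -1.54, let-7a at -1.18, and let-7e, let-7d, let-7b and let-7f between -0.88 and -0.54. let-7g, let-7i and miR-98 lay 0.31, 0.39 and 0.45 above it, which put them at the percentiles 57.2, 58.9 and 59.8 of all miRNAs tested. Their side of the median depended on the method. In limma-voom they lay at -0.66, -0.56 and -0.45 from it, and with a term for the replicate number in edgeR at -0.78, -0.69 and -0.62. Without the third Ctrl-sEV library they lay at -0.36, -0.30 and 0.22.

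The tests of single members depended on the scaling and on single libraries. Scaled by total miRNA reads alone, the median of all miRNAs tested moved to 0.79, the log2 fold change of let-7c was -0.74 and that of let-7a -0.39 (adjusted p = 0.0536 by edgeR), and those of let-7b, let-7d and let-7f were 0.11, 0.00 and 0.25. Those of let-7g, let-7i and miR-98 were 1.10, 1.18 and 1.24. With this scaling these 3 members were called higher, and let-7c passed as lower but was not called. DESeq2 passed 0 members, with an adjusted p of 0.0884 for let-7c, which was the 1 member under an unadjusted p of 0.05. Without any 1 of the 3 Cis-sEV libraries, let-7g, let-7i and miR-98 no longer passed in edgeR (all 3 stayed under an unadjusted p of 0.05), with adjusted p from 0.0584 to 0.150 for let-7g, from 0.0589 to 0.101 for let-7i and from 0.0774 to 0.107 for miR-98. miR-98 also did not pass without the first (adjusted p = 0.126) or the second (adjusted p = 0.107) Ctrl-sEV library, nor let-7a without the first (adjusted p = 0.0721) or the third (adjusted p = 0.110) Cis-sEV library. miR-98 was also lost in edgeR with TMMwsp factors (adjusted p = 0.0770) and with no filter (adjusted p = 0.129), and in limma-voom (adjusted p = 0.0708), and passed in 4 of the 15 alternatives run. Of the members that did not pass in the main fit, let-7d passed as lower in 7 of the 15 alternatives, more often than miR-98 passed. let-7e passed in 2 of them, let-7b in 1 and let-7f in 0. let-7c passed without each library in turn, although its log2 fold change was -0.95 without the third Cis-sEV library and -0.98 without the first Ctrl-sEV library.

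**Figure D2:**
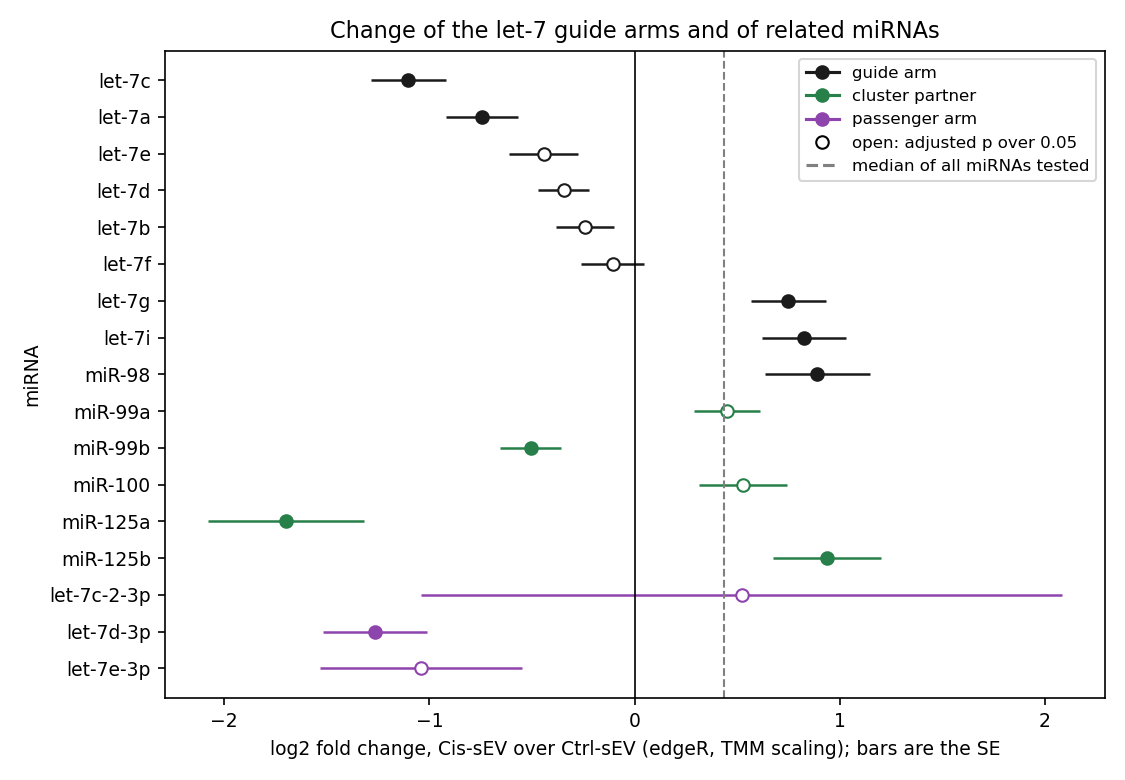
Log2 fold change of Cis-sEV over Ctrl-sEV (x axis, edgeR with TMM scaling, bars are the SE) of the 9 let-7 guide arms, the miRNAs that share a transcript with them and their passenger arms with at least 100 CPM in a group; filled points passed the test and the dashed line is the median of all miRNAs tested, 0.44. The guide arms run from -1.10 for let-7c to 0.89 for miR-98, with a gap between let-7f at -0.11 and let-7g at 0.75.

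The make-up of the family does not depend on how libraries are scaled, since each member is divided by the let-7 reads of its own library. let-7c made up 21.4%, 21.6% and 20.3% of the let-7 reads in Cis-sEV and 35.0%, 30.9% and 33.4% in Ctrl-sEV, with means of 21.1 ± 0.70% and 33.1 ± 2.03% (SD, n = 3 each). let-7a made up 18.6%, 19.0% and 18.1% in Cis-sEV and 23.3%, 23.3% and 21.7% in Ctrl-sEV, with means of 18.6 ± 0.46% and 22.8 ± 0.91%. For both shares, every Cis-sEV library lay below every Ctrl-sEV library. Together the 2 members held 39.7 ± 1.14% of the family's reads in Cis-sEV, compared to 55.9 ± 2.09% in Ctrl-sEV.

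let-7g made up 9.85%, 10.1% and 9.92% of the let-7 reads in Cis-sEV and 4.16%, 4.98% and 3.86% in Ctrl-sEV. let-7i made up 7.37%, 7.39% and 8.14% in Cis-sEV and 3.24%, 3.47% and 2.68% in Ctrl-sEV. miR-98 made up 0.934%, 1.05% and 1.13% in Cis-sEV and 0.325%, 0.315% and 0.640% in Ctrl-sEV. For these 3 shares every Cis-sEV library lay above every Ctrl-sEV library, and let-7g and let-7i together held 17.6 ± 0.43% in Cis-sEV and 7.47 ± 0.95% in Ctrl-sEV. let-7f also held a larger share in each Cis-sEV library, 16.4 ± 0.19% against 13.0 ± 0.63%, and let-7b 11.7 ± 0.40% against 10.2 ± 0.55%. The shares of let-7d (9.47 ± 0.44% and 8.92 ± 0.95%) and let-7e (4.16 ± 0.78% and 4.18 ± 0.35%) overlapped between the groups.

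With 3 libraries against 3, the smallest p that a two-sided exact permutation test can give is 0.1, and it was reached by the shares of 7 of the 9 members. For let-7d the exact p was 0.5 and for let-7e 1.0, and these 9 p-values were not adjusted. Divided by the let-7 reads of the library, 46.7% of all miRNAs tested had every Cis-sEV library above every Ctrl-sEV library and 7.65% had every one below, against 5 and 2 of the 9 members. The rise of 1 share lowers the others. With let-7a and let-7c left out of the sum, the shares of let-7b, let-7d, let-7e and let-7f were all lower in each Cis-sEV library, and those of let-7g (16.5 ± 0.45% against 9.82 ± 1.15%), let-7i (12.6 ± 0.51% against 7.11 ± 0.98%) and miR-98 (1.72 ± 0.15% against 0.964 ± 0.40%) were still higher.

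**Figure D3:**
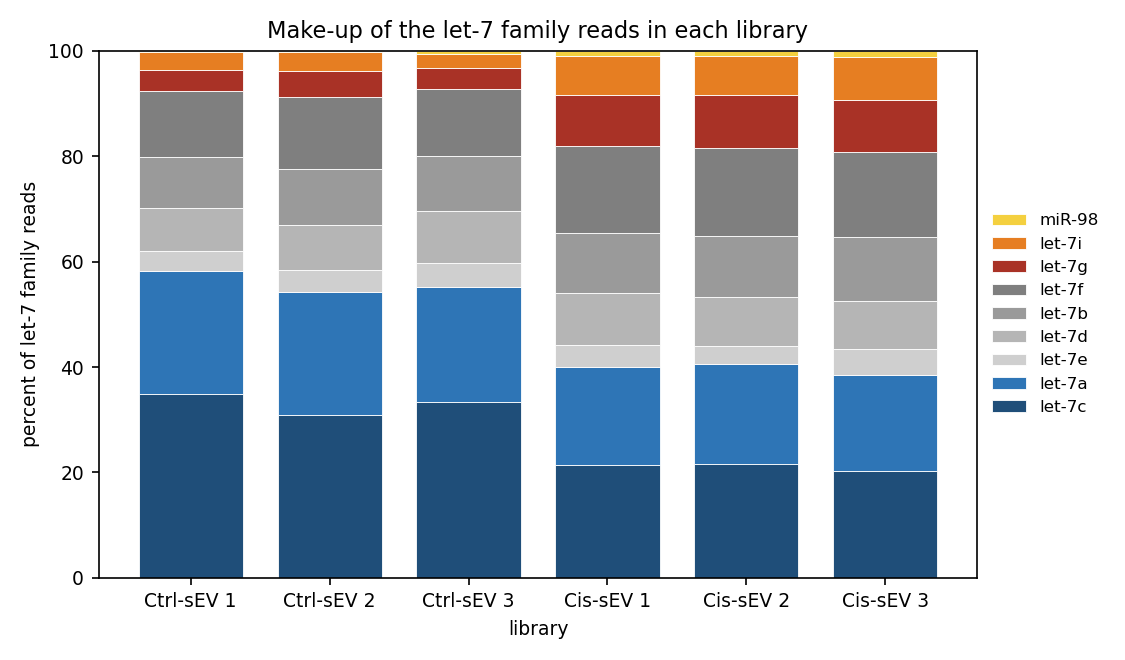
Percent of let-7 family reads (y axis, bars start at 0) on each of the 9 guide arms in the 3 Ctrl-sEV and 3 Cis-sEV libraries. let-7c and let-7a (blue, at the bottom) fill 54.3% to 58.2% of the Ctrl-sEV bars and 38.4% to 40.7% of the Cis-sEV bars, while let-7g and let-7i (red and orange) fill 6.55% to 8.45% and 17.2% to 18.1%.

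The split within the family was seen most directly as a ratio of reads in the same library. Reads of let-7g plus let-7i per read of let-7a plus let-7c were 0.431, 0.430 and 0.470 in Cis-sEV and 0.127, 0.156 and 0.119 in Ctrl-sEV. The mean log2 ratio differed by 1.74, 3.33-fold, while the SD between libraries was 0.07 in Cis-sEV and 0.20 in Ctrl-sEV. These members were put together with earlier results of the same libraries known, so the sum is described and not tested. Each single pair showed the same direction. On the log2 scale the difference was 1.5 (2.83-fold) for let-7g to let-7a, 1.86 (3.62-fold) for let-7g to let-7c, 1.58 (3.0-fold) for let-7i to let-7a and 1.94 (3.84-fold) for let-7i to let-7c. For all 4 pairs the groups did not overlap. The pairs were made of the same chosen members and are likewise given without a test.

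**Figure D4:**
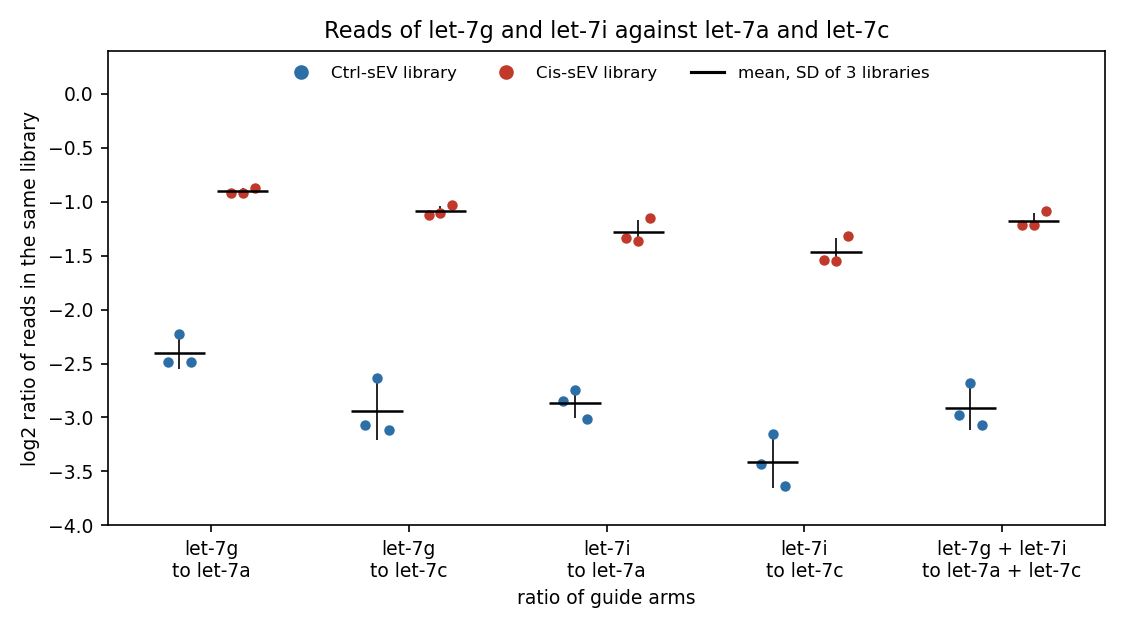
Log2 ratio of reads (y axis) of let-7g or let-7i to let-7a or let-7c, and of the summed reads, in each Ctrl-sEV (blue) and Cis-sEV (red) library, with the mean and SD of 3 libraries. The Cis-sEV libraries lie above the Ctrl-sEV libraries in all 5 ratios, and the summed ratio is -1.22, -1.22 and -1.09 in Cis-sEV against -2.98, -2.68 and -3.07 in Ctrl-sEV.

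Members that are alike in sequence or made from 1 transcript did not all have like values. let-7b and let-7c differ by 1 base (G17A from let-7b to let-7c), and the hairpins of let-7b and let-7c-2 are neighbours in Lncppara, yet their log2 fold changes were -0.24 and -1.10. let-7a, let-7f and let-7d come in part from 1 transcript and had -0.75, -0.11 and -0.35. miR-98 at 0.89 and let-7f at -0.11 share an intron of Huwe1, but let-7f has a further hairpin elsewhere. let-7g and let-7i, which lie on different chromosomes and share the change G12U from let-7a, had 0.75 and 0.83.

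LIN28 is known to bind 2 short motifs in the loop of let-7 hairpins, GGAG and, for a group of the family, one that holds UGAU. The letters GGAG were found in the loop of 9 of the 12 let-7 hairpins, against 8.07% of the 644 mouse hairpins in RefSeq with both arms annotated, whose loops vary in length. They were missing from those of let-7b, let-7c-2 and miR-98. The exact letters UGAU were found in the loops of let-7g, let-7f-1 and let-7b, against 6.06% of all hairpins. Of these members 1 rose and 2 did not pass the test. Only these exact letters on the strand of the hairpin were searched. Shorter or altered forms of the motifs were not, so the search does not show which members LIN28 can bind. A match is not a binding site.

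The passenger arms, the strands cut from the other side of the hairpin and mostly discarded, were a separate readout of the same hairpins. Of 11 counted here, 4 passed the filter on low counts. By edgeR 1 of these 4 passed as lower and 0 as higher, against 8.5% and 26.3% of all miRNAs tested. None of them was higher at an unadjusted p under 0.05 either, in edgeR or in DESeq2. let-7g-3p was not analysed here. The sequences of let-7d-3p and of the passenger arms of let-7c-2 and let-7a-1 are shown from RefSeq with bases 2 to 8 in capitals, since the first carries the change and the other two are identical to each other.
mmu-let-7d-3p: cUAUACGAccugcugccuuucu
mmu-let-7c-2-3p: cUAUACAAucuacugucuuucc
mmu-let-7a-1-3p: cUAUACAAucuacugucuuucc

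let-7d-3p had 5326, 9110 and 8927 reads in Cis-sEV and 3955, 5506 and 5264 reads in Ctrl-sEV, or 4413 ± 1256 against 8314 ± 1429 CPM. With TMM scaling it fell by 1.27 on the log2 scale (SE 0.25, edgeR adjusted p = 0.0099). It did not pass without the third Cis-sEV library (adjusted p = 0.0587) or with DESeq2 (adjusted p = 0.0759). The guide arm of the same hairpin, let-7d-5p, did not pass the test. Reads of let-7d-5p per read of let-7d-3p were 8.96, 4.82 and 5.25 in Cis-sEV and 3.35, 3.61 and 2.59 in Ctrl-sEV, a log2 difference of 0.95 (two-sided exact permutation p = 0.1, the smallest possible) with groups that did not overlap. The ratio of the 2 arms of let-7e overlapped between the groups, at 13.9 to 29.1 and 9.16 to 21.7 (exact permutation p = 0.5).

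let-7e-3p lay at 532 ± 141 CPM in Cis-sEV against 821 ± 394 CPM in Ctrl-sEV. Its log2 fold change with TMM scaling was -1.04 (edgeR adjusted p = 0.166). let-7c-2-3p had 464, 408 and 387 reads in Cis-sEV and 91, 0 and 106 in Ctrl-sEV, with a log2 fold change of 0.52 (SE 1.56, edgeR adjusted p = 0.865). The second Ctrl-sEV library, which had no read of it, was the deepest of its group. The count table gives no sequence for let-7a-1-3p, which had 1 read in all. By its RefSeq sequence, reads of the 2 arms cannot be told apart, so those counted on let-7c-2-3p may come from either hairpin. let-7i-3p had 0 to 47 reads in a library and a log2 fold change of -1.52 (SE 2.10, edgeR adjusted p = 0.699). The 7 passenger arms that did not pass the filter had at most 40 reads in a library and were not tested.

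Some let-7 hairpins are made from the same transcripts as members of the miR-99/100 and miR-125 families. miR-125 is the vertebrate counterpart of lin-4, which times development in worms as let-7 does. Of these 5 partners, 1 passed as higher and 2 as lower in edgeR, against 26.3% and 8.5% of all miRNAs tested, and 2 did not pass. miR-125b-5p, a partner of let-7a-2 and let-7c-1, lay at 18619 ± 1432 CPM in Cis-sEV against 7905 ± 3773 CPM in Ctrl-sEV. With TMM scaling it rose by 0.94 on the log2 scale (SE 0.26, edgeR adjusted p = 0.0298). miR-99a-5p, made with let-7c-1, and miR-100-5p, made with let-7a-2, had log2 fold changes of 0.45 (edgeR adjusted p = 0.0710) and 0.53 (edgeR adjusted p = 0.107), while let-7c and let-7a fell.

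The partners of let-7e were lower in Cis-sEV. Without TMM factors, miR-99b-5p lay at 29113 ± 401 CPM in Cis-sEV against 32277 ± 1889 CPM in Ctrl-sEV. With TMM scaling it fell by 0.51 on the log2 scale (SE 0.15, edgeR adjusted p = 0.0349). miR-125a-5p fell by 1.70 (SE 0.38, edgeR adjusted p = 0.0140), with 1098, 1085 and 1220 reads in Cis-sEV and 382, 1759 and 1038 in Ctrl-sEV, and was called. let-7e itself had -0.44 and did not pass. miR-125a-5p did not pass without the second (adjusted p = 0.0522) or the third (adjusted p = 0.0913) Cis-sEV library, nor without the second (adjusted p = 0.0724) or the third (adjusted p = 0.0613) Ctrl-sEV library. miR-99b-5p did not pass without any 1 of the Cis-sEV libraries (adjusted p = 0.0639 to 0.182), and miR-125b-5p without any 1 of them (adjusted p = 0.141 to 0.199) or without the third Ctrl-sEV library (adjusted p = 0.120). Scaled by total miRNA reads, the log2 fold change of miR-99b-5p was -0.15 (edgeR adjusted p = 0.298), and that of miR-125a-5p -1.41 (edgeR adjusted p = 0.0532). Of the 9 alternatives that kept all libraries, miR-125b-5p passed in 2, and miR-99b-5p and miR-125a-5p in 5 each, and none of the 3 passed in DESeq2 (where 1 was under an unadjusted p of 0.05) or limma-voom (where all 3 were).

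Among the 67 other miRNAs with a mean of at least 1000 CPM, miR-99b-5p had the profile most like that of the summed let-7 reads over the 6 libraries. The root-mean-square distance of its centred log2(CPM + 1) values from those of the family was 0.06. It was followed by the hair cell miRNA miR-183-5p at 0.11 and by miR-127-3p at 0.15. In CPM, miR-99b-5p ranged from 28822 to 33998, miR-183-5p from 35163 to 43092 and miR-127-3p from 17003 to 24243 over the 6 libraries.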

How the data were processed

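Small RNA of 18 to 30 nt was sequenced by the authors on the DNBSEQ platform from 3 Cis-sEV and 3 Ctrl-sEV samples. Per the study's methods and the submitters' processing notes, reads were aligned to GRCm38.p6 with Bowtie2 (version not given in the sources used here) and annotated with AASRA and cmsearch, miRBase before other classes. The deposited values are whole-number counts of reads per mature miRNA, without normalization.

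Counts were tested with edgeR 4.0.16 in R 4.3.3: quasi-likelihood fit, TMM factors (1.10 to 1.18 in Cis-sEV, 0.762 to 0.997 in Ctrl-sEV), filterByExpr (minimum 10 reads), group as the only term and Benjamini-Hochberg adjustment over 353 miRNAs. The SE is the log2 fold change over the root of F. The script was tested on simulated data. Shares of single members and ratios of the 2 arms of a hairpin used exact permutation tests (scipy 1.17.1). Alternatives were other scalings, no filter, DESeq2 1.42.0, limma-voom (limma 3.58.1), a replicate block and each library left out. The members, lists and pairs were chosen with earlier results of these data known. The named miRNAs were all 9 members, passenger arms and partners that were called or reached 100 CPM in a group, miR-204-5p, and the 3 miRNAs nearest in profile to the family sum. Named beyond this rule, after their values were seen, were let-7i-3p, let-7a-1-3p, let-7k and miR-199b-3p. The same holds for the marker miRNAs miR-96-5p, miR-183-5p, miR-124-3p, miR-206-3p, miR-1a-3p, miR-133a-3p, miR-144-5p, miR-199a-3p and miR-142a. The study describes the 3 samples of each group as biological replicates, but the labels do not say whether they came from separate cultures. The p-values rest on the spread between these samples only. Averages in the count table were not used.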

Additional observations from a re-analysis of the deposited data

How the results depend on the processing

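let-7c was the lowest and let-7a the next lowest log2 fold change of the 9 members, and let-7g, let-7i and miR-98 the 3 highest, in all 16 settings, the main one included. The number of members called was 1. It was 3 with total miRNA reads, 0 with DESeq2, 5 with no limit on the fold change, and 0 to 2 without single libraries. The 3 called with total reads were let-7g, let-7i and miR-98, all higher, and let-7c was not among them. The number that passed as lower was 2. It was 1 with total reads, 4 with DESeq2 size factors in edgeR, 5 with upper-quartile factors, 0 with DESeq2, 1 with the replicate block, and 1 to 3 without single libraries. With TMMwsp factors, with no filter and without miR-204-5p it was 3, as let-7d passed too. The number that passed as higher was 3. It was 0 with upper-quartile factors, with DESeq2 and with the replicate block, 2 with TMMwsp factors, with no filter and with limma-voom, where miR-98 was lost, and 0 to 3 without single libraries. DESeq2 passed 109 of all miRNAs. Of the passenger arms and partners 2 were called, 1 with total reads, 0 with DESeq2, and 0 to 2 without single libraries. The change of the family's share, -1.75 percentage points, became -6.75 without miR-204-5p in the total and ran from -3.47 to -0.42 without single libraries. The log2 difference of the let-7g plus let-7i ratio, 1.74, was 1.54 against let-7a alone, 1.89 against let-7c alone, 1.58 against let-7a, b, c and e, and 1.65 to 1.85 without single libraries. The change of let-7e's share, -0.02 percentage points, ran from -0.40 to 0.38 without single libraries, and was above 0 without the second Cis-sEV library (0.38) or the third Ctrl-sEV library (0.18). The cause of these shifts was not tested.

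The labels do not say whether libraries with the same replicate number share a batch. Deviations from the group means correlated between same-numbered libraries at -0.05, -0.18 and -0.02. Between libraries of different number the correlations ran from -0.12 to 0.16. With 3 libraries in each group, these values cannot show whether the libraries were paired. With the replicate block, let-7c passed (edgeR adjusted p = 0.0211), and let-7a (0.0802), let-7g (0.0641), let-7i (0.0634) and miR-98 (0.137) did not. The median of all miRNAs tested was 0.44 with TMM, 0.79 with total reads, 0.33 with DESeq2 size factors and 0.22 with upper-quartile factors. It was 1.42 in limma-voom, 1.55 with the replicate block, and 0.18 to 1.04 without single libraries. Over all 810 miRNAs it was 2.68 in edgeR with no filter and 1.45 in DESeq2. Depth limits the passenger arms, most of which held few reads, and the lower depth of Ctrl-sEV goes with the group.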
